A study of Mus musculus with 12 samples.

Results

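The JAK-STAT and SOCS signalling genes described here were 10 symbols: the receptor chains Il6ra and Il4ra, the kinases Jak1 and Jak2, the transcription factors Stat3, Stat5a and Stat5b, the inhibitors Socs1 and Socs3, and the kinase gene Pim1. They were chosen by name from the 23621 symbols of the deposited count table, and 9 of the 10 were found there. Jak2 was not analysed here. RNA-seq libraries were made from neutrophils, 4 in each of 3 groups. All mice were female, of the Balb/c strain and 8 weeks of age. Naive neutrophils were taken from the bone marrow of naive mice. The 2 blood groups, of high density (HDN) and of low density (LDN), were the density fractions of neutrophils from mice bearing liver metastases, which the series title ties to breast cancer. The labels give neither the tumour line nor the number of mice behind a library, and p-values measure only the spread between these libraries. Bone marrow against blood, tumour-free against tumour-bearing, and a date-like tag carried by every HDN and LDN column and by no Naive column all separate the same samples, so these cannot be told apart in any comparison with Naive. HDN and LDN shared tissue, host and tag.

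Cytokine receptors of this family have no kinase activity of their own. Binding of the ligand brings receptor-bound Janus kinases (JAKs) together, and the kinases phosphorylate the receptor and then STAT proteins, which pair, enter the nucleus and bind DNA. Interleukin-6 uses Il6ra with the shared chain gp130 (Il6st) and acts mostly through Stat3, and Il4ra serves interleukin-4 and interleukin-13. In neutrophils the receptor for the growth factor G-CSF also signals through Stat3 and Stat5, and Socs3, itself induced by Stat3, damps that signal by binding the receptor and inhibiting the kinase. Messenger RNA levels do not report phosphorylation, which was not measured here.

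The 250 bases before the RefSeq transcription start are printed for the 4 members that were higher in both blood groups than in Naive, because STAT binding letters could be looked for there. The windows were read from RefSeq on build GRCm38.p6 (Socs3 at chr11:117969367-117969616 on the minus strand, Il4ra at chr7:125552021-125552270 on the plus strand, Il6ra at chr3:89913197-89913446 on the minus strand and Stat3 at chr11:100939541-100939790 on the minus strand). Each is shown 5′ to 3′ on the gene's strand, and capitals mark a match to the STAT dimer letters TTCNNNGAA.
Socs3: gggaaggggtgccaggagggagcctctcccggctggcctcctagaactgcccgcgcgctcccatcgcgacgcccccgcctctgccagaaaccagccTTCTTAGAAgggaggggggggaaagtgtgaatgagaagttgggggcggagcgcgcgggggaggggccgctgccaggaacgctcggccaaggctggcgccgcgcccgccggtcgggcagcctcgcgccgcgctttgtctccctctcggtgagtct
Il4ra: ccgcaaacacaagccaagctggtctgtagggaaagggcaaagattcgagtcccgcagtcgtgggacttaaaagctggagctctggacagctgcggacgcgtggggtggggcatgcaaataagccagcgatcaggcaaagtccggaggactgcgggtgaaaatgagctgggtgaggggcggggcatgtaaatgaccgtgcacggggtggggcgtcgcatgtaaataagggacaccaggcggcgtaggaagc
Il6ra: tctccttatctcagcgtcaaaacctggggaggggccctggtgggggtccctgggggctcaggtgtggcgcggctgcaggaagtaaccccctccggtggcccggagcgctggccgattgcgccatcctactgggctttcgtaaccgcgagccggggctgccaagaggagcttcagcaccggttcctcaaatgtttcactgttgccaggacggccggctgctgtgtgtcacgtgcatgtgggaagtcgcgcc
Stat3: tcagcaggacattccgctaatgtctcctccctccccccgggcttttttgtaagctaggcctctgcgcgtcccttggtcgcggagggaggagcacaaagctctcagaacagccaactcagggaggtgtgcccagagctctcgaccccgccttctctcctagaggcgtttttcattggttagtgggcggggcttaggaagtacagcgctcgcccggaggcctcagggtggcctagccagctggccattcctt
The letters TTCNNNGAA, which read alike on both strands, were in 7.02% of all 32851 windows of this length. Of the 12 windows of the 9 members, 1 held them: that of Socs3, as TTCTTAGAA with its first base 154 bases before the start. The form whose spacer has 1 more base was in 5.85% of all windows and in 0 of the 12. A match is a description of these letters, and binding was not measured.

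Libraries held 18113922 to 27741885 reads in genes in Naive, 20049857 to 30044508 in HDN and 23181686 to 26456768 in LDN. Levels are given as CPM, reads scaled to a common library size with TMM factors, which sets each library relative to the bulk of its genes. HDN 7 stood apart with a scaling factor of 1.28. The 10 neutrophil markers had reads in all groups and summed to 196661 to 229224 CPM in Naive, 76954 to 126912 in HDN and 187648 to 247046 in LDN. S100a9 and S100a8 were the most abundant of them in every group and had their lowest means in HDN (44708 and 35725 CPM). Means of the granule genes Ngp, Ltf and Camp were 31861, 21031 and 8063 CPM in Naive and 1766, 696 and 55.7 in HDN. In LDN the means of these granule genes were 20609, 12970.5 and 1109.8 CPM. Monocyte and macrophage markers (9 of 10 with values) summed to 281 to 399 CPM in Naive, 262 to 536 in HDN and 110 to 175 in LDN, mostly Csf1r, and C1qa, C1qb and C1qc had 0 reads in HDN. T cell markers (6 of 7 with values) summed to 192 to 267 CPM in Naive, mostly Cd3d, 3.59 to 19.4 in HDN and 32.3 to 49.0 in LDN. The other T cell markers were low and did not move together. Cd3e, Cd4 and Cd8a had their lowest means in Naive (0.0876, 0.156 and 0.0254 CPM), Cd3g and Lck their highest (2.56 and 0.858 CPM). B cell markers (5 of 7 with values) summed to 16.2 to 43.8 CPM in Naive, 0.305 to 2.06 in HDN and 1.26 to 6.03 in LDN. Platelet markers summed to 110.8 to 121 CPM in Naive, 9.46 to 11.3 in HDN and 27.6 to 32.6 in LDN. Itgb3 made up most of this in Naive (mean 112.7 CPM) and LDN (26.5), where Pf4 had 0.672 and 0.314. Eosinophil markers summed to 17.3 to 73.2, 40.5 to 86.8 and 13.7 to 23.7 CPM in the same order. In HDN these were mostly Siglecf (63.1 CPM), with Prg2 at 0.170 and Epx at 0, while Naive had 26.1 CPM of Prg2 and 4.52 of Epx. The markers of natural killer cells, basophils and mast cells, and erythroid cells summed to at most 5.80 CPM in any library. Of the 7 erythroid markers 0 passed the filter on low counts. The globin genes Hba-a1, Hba-a2, Hbb-bs and Hbb-bt had 0 reads in every group, so this list may not report erythroid cells. The part of other cell types in the results below was not tested. In these bulk samples a lower level of a gene in every cell and fewer cells of a type that carries it cannot be told apart.

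All 9 members passed the filter on low counts. Relative to Naive, HDN had higher Il4ra, Socs3, Il6ra, Stat3 and Jak1, 5 of 9 members (55.6%), and 0 were lower, beside 59.8% of 10604 genes called, 30% higher and 29.9% lower. LDN had higher Il4ra, Il6ra, Stat3 and Socs3 than Naive, 4 of 9 (44.4%) with 0 lower, beside 54.2% of all genes called, 27.4% higher and 26.8% lower. Between the fractions, LDN was lower than HDN for Socs3 and Stat5b, 2 of 9 (22.2%) with 0 higher, beside 46.3% of all genes called, 26% higher and 20.3% lower. A call is a Benjamini-Hochberg adjusted p under 0.05 over all genes from edgeR's quasi-likelihood test. The median log2 fold change of the 9 members was 0.77 for HDN against Naive, 0.61 for LDN against Naive and -0.21 for LDN against HDN, where all genes had medians of 0.04, 0.01 and 0.02. HDN and LDN share the Naive libraries in their comparisons with Naive, so the values are given side by side and are not independent. With library totals that leave out the 20 most abundant genes, the share of called genes that were higher moved from 56.19% to 44.69% in LDN against HDN and from 50.61% to 31.78% in LDN against Naive. In the authors' deposited tables of the same comparisons, 5 members were called higher in HDN than in Naive, 4 higher in LDN than in Naive and 3 lower in LDN than in HDN.

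**Figure D1:**
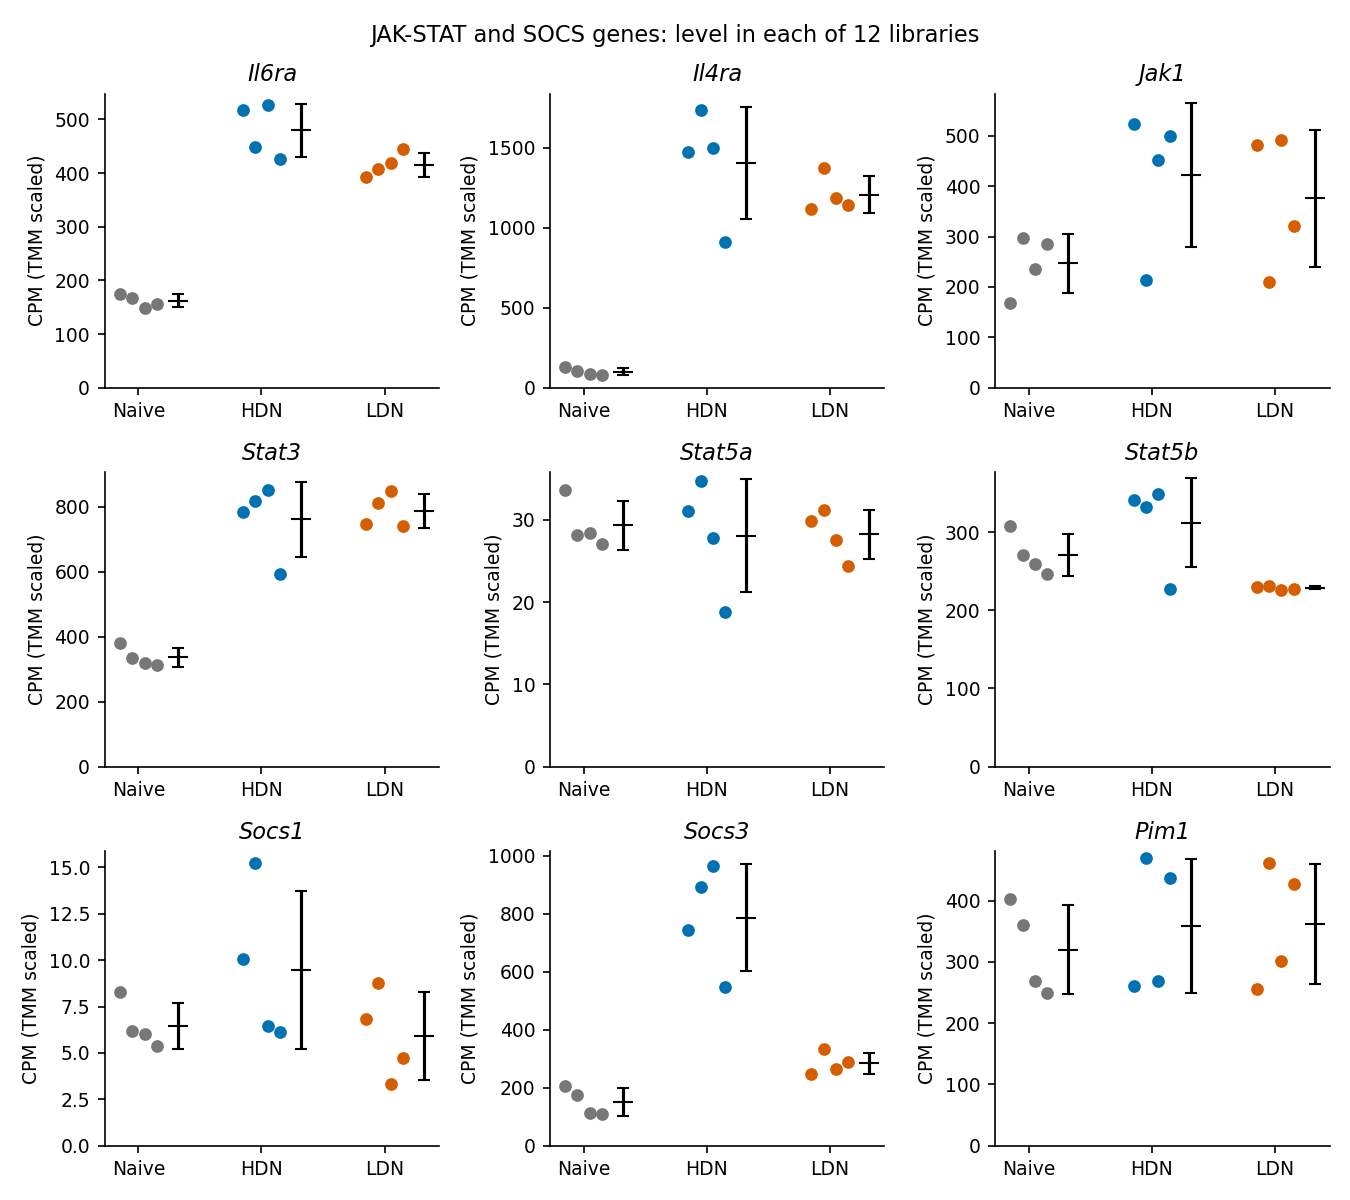
Expression of the 9 members in each library, in TMM-scaled CPM on a linear axis from 0, with 1 panel per gene, 1 point per library and the mean ± SD beside each group (n = 4). Il4ra, Il6ra, Stat3 and Socs3 lie above all Naive libraries in both blood groups, and Socs3 is the one member whose 4 LDN libraries all lie below the 4 HDN libraries. Of all genes, 39.2% had no overlap in LDN against HDN, 53.3% in HDN against Naive and 55.3% in LDN against Naive.

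**Figure D2:**
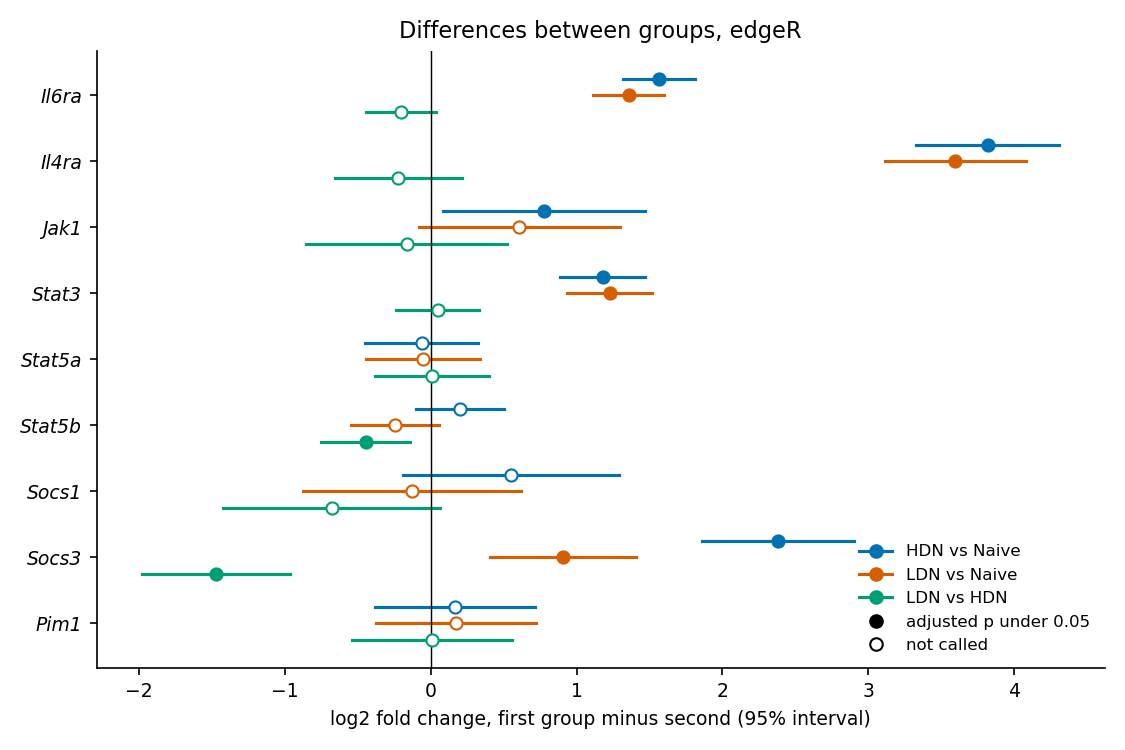
Log2 fold change of each member in the 3 comparisons, with bars for the 95% interval of the fitted value and filled points for an adjusted p under 0.05. Il4ra has the highest values against Naive, 3.82 in HDN and 3.60 in LDN, and Socs3 the lowest between the fractions, -1.47.

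Il4ra, the chain that binds interleukin-4, had the widest difference of the members. Its Naive libraries 1 to 4 stood at 129.8, 103, 85.4 and 81.1 CPM. HDN 3, 4, 5 and 7 had 1475, 1738, 1501 and 913 CPM, and the LDN libraries of the same numbers had 1118, 1375, 1189 and 1144. All 8 blood libraries lay far above the Naive ones, HDN 7 was the lowest of the blood libraries, and the fractions overlapped. The level was 14.1-fold higher in HDN than in Naive (log2 fold change 3.82 ± 0.22 SE, adjusted p = 6.65e-09, edgeR) and 12.1-fold higher in LDN (3.60 ± 0.21, adjusted p = 2.09e-08, edgeR). Between LDN and HDN the log2 difference was -0.22, with a 95% interval from -0.66 to 0.22 and an adjusted p of 0.366 (edgeR).

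Il6ra, the ligand-binding chain of the interleukin-6 receptor, varied least of the members. It had 175, 168, 149 and 157 CPM in Naive 1 to 4. In HDN 3, 4, 5 and 7 it had 517, 449, 526 and 427 CPM, and in LDN 3, 4, 5 and 7 it had 392, 408, 418 and 445 CPM. The blood libraries formed a tight band above Naive, and 3 of the 4 pairs of fractions with the same number had the lower value in LDN. Its within-group SD of 0.11 on the log2 scale was larger than that of 8.17% of 783 genes of like abundance. HDN exceeded Naive 2.96-fold (log2 1.56 ± 0.11 SE, adjusted p = 3.69e-08, edgeR) and LDN exceeded Naive 2.56-fold (log2 1.36 ± 0.11, adjusted p = 2.86e-07, edgeR). The log2 difference between LDN and HDN was -0.21 ± 0.11 with an adjusted p of 0.126 (edgeR). That difference passed the threshold in 4 other settings, among them without Naive 1 (adjusted p = 0.043) and without HDN 7 (adjusted p = 0.0443), and in the authors' deposited table it had an adjusted p of 0.0469.

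The partner chain gp130, gene Il6st, is no member but is needed to read Il6ra. It had 3, 16, 25 and 13 reads in Naive 1 to 4, 574 to 738 reads in HDN and 607 to 847 reads in LDN. In CPM its mean was 0.658 ± 0.475 (SD, n = 4) in Naive, 25.6 ± 4.13 in HDN and 33.7 ± 4.36 in LDN. The gp130 transcript was thus close to the detection floor in the marrow libraries and well measured in all blood libraries. It was higher in HDN than in Naive by a log2 fold change of 5.33 (adjusted p = 7.01e-08, edgeR) and in LDN by 5.72 (adjusted p = 8.52e-08, edgeR). The log2 ratio of Il6ra to Il6st reads within a library was 8.38 ± 1.57 (SD, n = 4) in Naive, 4.24 ± 0.23 in HDN and 3.63 ± 0.21 in LDN. The 3 groups did not overlap in this ratio, and each difference (-4.14 for HDN against Naive, -4.74 for LDN against Naive and -0.60 for LDN against HDN) had an exact two-sided permutation p of 0.0286, the smallest that 4 against 4 allows, or 0.0429 after adjustment over 9 ratio tests. With 10 reads added to each count, because the Naive counts of Il6st are small, the differences from Naive were -3.13 and -3.73. Without 1 library the difference between the fractions ranged from -0.69 to -0.51. It no longer passed without HDN 4, LDN 3 or LDN 5 (adjusted exact p = 0.0735). The fractions still did not overlap there. With 1 library fewer the exact test has fewer arrangements, so a lost call does not by itself show a weaker difference. With LDN and HDN paired by number, exact sign flips gave p = 0.125, the smallest that 4 pairs allow.

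Jak1, a kinase that serves the interleukin-6, interleukin-4 and interferon receptors, spread more within groups than most genes. It had 168, 297, 236 and 285 CPM in Naive 1 to 4. HDN 3, 4, 5 and 7 had 523, 213, 452 and 499.8 CPM, and LDN 3, 4, 5 and 7 had 482, 209, 492 and 320.3 CPM. Number 4 was the lowest library in both fractions and fell inside the Naive range, so the groups overlapped. The within-group SD of 0.53 on the log2 scale was larger than that of 96.5% of 773 genes of like abundance. HDN against Naive gave a log2 fold change of 0.77 ± 0.31 SE with an adjusted p of 0.042 (edgeR), and LDN against Naive gave 0.61, with a 95% interval from -0.08 to 1.3 and an adjusted p of 0.109 (edgeR). The HDN call was lost in 11 of 20 other settings, among them without Naive 1 (adjusted p = 0.119), Naive 3 (0.0864), Naive 4 (0.054), HDN 3 (0.106), HDN 5 (0.0748), HDN 7 (0.0842) or LDN 7 (0.0504). LDN against HDN was -0.17, with an interval from -0.85 to 0.52 and an adjusted p of 0.683 (edgeR).

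The 3 libraries with the lowest Jak1 of their group were also those in which long transcripts were low. Genes with a longest transcript over 6000 nucleotides (1412 genes) were compared in each library with genes under 2000 nucleotides (2248 genes), as the median log2 deviation from the group mean. The difference was -0.28 in Naive 1, -0.52 in HDN 4 and -0.31 in LDN 4, the lowest of each group, and 0.39 in HDN 7, the highest of all. Jak1, whose longest transcript has 4906 nucleotides, deviated by -0.52, -0.90 and -0.76 on the log2 scale in those 3 libraries and by 0.33 in HDN 7. Without the 3 libraries, a comparison chosen after these values were seen, Jak1 was also called in LDN against Naive (log2 0.66, adjusted p = 0.00835, edgeR). Jak1 itself fell in neither length class. Of the members over 6000 nucleotides, Il6ra (8639) deviated by 0.11, -0.09 and -0.03 in Naive 1, HDN 4 and LDN 4. Stat3 (6042) deviated by 0.18, 0.12 and 0.05 there. In HDN 7 Il6ra deviated by -0.16 and Stat3 by -0.35. The part of transcript length in the Jak1 values was not tested.

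Stat3, the main STAT of interleukin-6 and G-CSF signalling, was higher than in Naive in both fractions. Naive 1 to 4 had 379, 333, 321 and 314 CPM. The HDN libraries had 786, 819, 851 and 594 CPM in the order 3, 4, 5 and 7, and the LDN libraries had 748, 813, 849 and 742. All blood libraries exceeded all Naive libraries, and 3 of the 4 number pairs differed by little, while HDN 7 lay below LDN 7. The fold was 2.26 in HDN (log2 1.18 ± 0.13 SE, adjusted p = 2.9e-06, edgeR) and 2.34 in LDN (log2 1.23 ± 0.13, adjusted p = 3.22e-06, edgeR) over Naive. The difference between LDN and HDN was 0.05 on the log2 scale with an interval from -0.24 to 0.33 (adjusted p = 0.782, edgeR), and its sign changed with the scaling.

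Stat5b, used by growth factor and interleukin-2 family receptors, was the other member with a called difference between the fractions. It had 308, 271, 259 and 246 CPM in Naive 1 to 4. HDN 3, 4, 5 and 7 had 340.4, 332, 349 and 227 CPM, and LDN 3, 4, 5 and 7 had 230.1, 231, 226 and 228 CPM. The 4 LDN libraries were nearly identical and below every Naive library, whereas HDN held 3 high libraries and HDN 7 at the LDN level, so the fractions overlapped. LDN was 1.36-fold lower than HDN (log2 -0.45 ± 0.13 SE, adjusted p = 0.015, edgeR), a difference that passed the threshold in all 20 other settings. Against Naive the log2 fold change was 0.20 in HDN (adjusted p = 0.207, edgeR) and -0.24 in LDN (adjusted p = 0.141, edgeR). Without HDN 7 both passed the threshold, HDN at 0.33 (adjusted p = 0.00684, edgeR) and LDN with an adjusted p of 0.0298. With library totals that left out the 20 most abundant genes, LDN was lower than Naive by -0.53 (adjusted p = 0.000163, edgeR).

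Stat5a, the close relative of Stat5b, showed no called difference. Its libraries ranged from 27.1 to 33.6 CPM in Naive, 18.7 to 34.8 in HDN and 24.4 to 31.2 in LDN, with HDN 7 the lowest. The log2 difference was 0.01 for LDN against HDN, -0.06 for HDN against Naive and -0.05 for LDN against Naive, with adjusted p of 0.97, 0.77 and 0.812 (edgeR). The 3 intervals together spanned -0.45 to 0.40, and the sign of each changed with the setting. Within a library the log2 ratio of Stat5a to Stat5b reads was -3.49 ± 0.18 (SD, n = 4) in HDN, -3.02 ± 0.14 in LDN and -3.21 ± 0.04 in Naive. Without overlap, LDN exceeded HDN by 0.47 (exact two-sided permutation p = 0.0286, adjusted p = 0.0429), while HDN against Naive (-0.28, adjusted exact p = 0.0735) and LDN against Naive (0.18, adjusted exact p = 0.129) did not pass. Without 1 library the LDN and HDN difference in this ratio ranged from 0.41 to 0.54. It no longer passed (adjusted exact p = 0.0735) without HDN 5, HDN 7 or any 1 of the 4 LDN libraries. The fractions still did not overlap there. With 1 library fewer the exact test has fewer arrangements, so a lost call does not by itself show a weaker difference. With LDN and HDN paired by number, exact sign flips gave p = 0.125, the smallest that 4 pairs allow. HDN against Naive passed without HDN 4, and LDN against Naive passed without LDN 7 (adjusted exact p = 0.0367 each). The genes are near-identical copies in part, and reads that fit both could have been split or dropped in counting, so the levels of each are uncertain.

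Socs3, the inhibitor induced by Stat3, was the member that set HDN and LDN apart most. Naive 1 to 4 stood at 207, 176, 113 and 109 CPM. HDN 3, 4, 5 and 7 had 743, 893, 963 and 547 CPM. LDN 3, 4, 5 and 7 had 249, 332, 265 and 289.7 CPM. No library of one group lay within the range of another: Naive was lowest, LDN intermediate and HDN highest, also for HDN 7. LDN was 2.77-fold lower than HDN (log2 -1.47 ± 0.22 SE, adjusted p = 0.000158, edgeR) and 1.88-fold higher than Naive (log2 0.91 ± 0.22, adjusted p = 0.0034, edgeR), and HDN was 5.2-fold higher than Naive (log2 2.38 ± 0.23, adjusted p = 9.8e-07, edgeR). Lack of overlap between groups was found for 39.2% of genes in LDN against HDN, 53.3% in HDN against Naive and 55.3% in LDN against Naive. All 3 calls held in every one of the 20 other settings.

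The ratio of Socs3 to its inducer was also taken within each library. It reuses the reads of the 2 genes, so it follows from their separate differences and is no independent evidence, and the same holds for the other ratios. The log2 ratio of Socs3 to Stat3 reads was 0.03 ± 0.15 (SD, n = 4) in HDN, -1.48 ± 0.19 in LDN and -1.21 ± 0.35 in Naive. LDN fell below HDN by 1.51 on the log2 scale and HDN exceeded Naive by 1.23, each without overlap (exact two-sided permutation p = 0.0286, adjusted p = 0.0429 over 9 tests). With LDN and HDN paired by number, exact sign flips gave p = 0.125 for their difference, the smallest that 4 pairs allow. LDN and Naive overlapped in this ratio and differed by -0.27 (adjusted exact p = 0.257). The ratio within a library is free of the scaling between libraries, but not of transcript length or mapping effects.

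**Figure D3:**
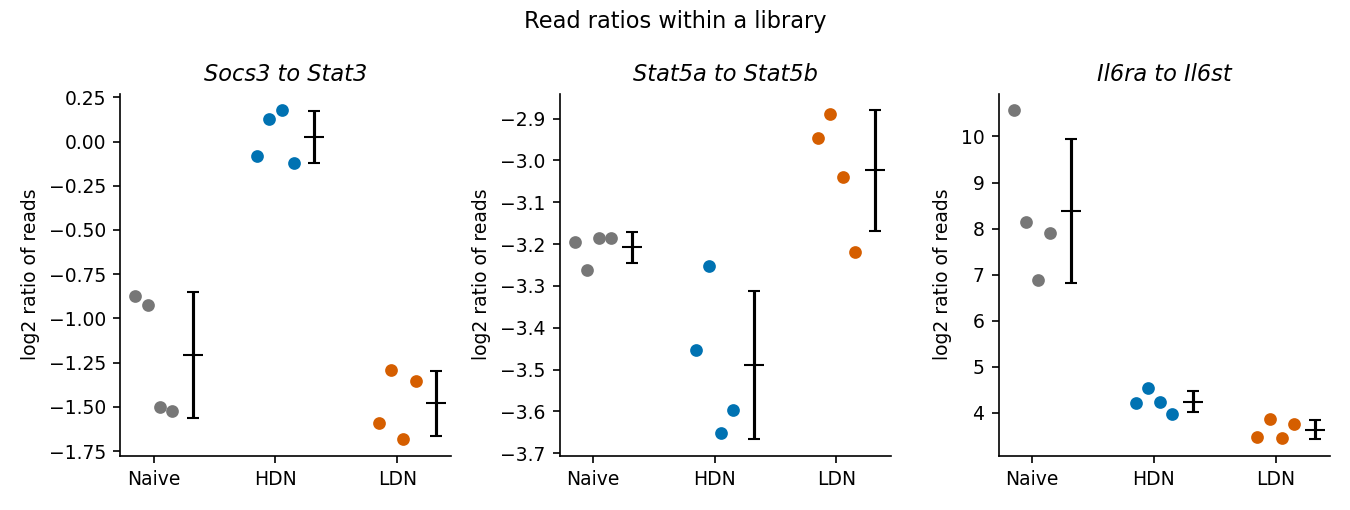
Log2 ratio of reads of 2 genes within each library, for Socs3 to Stat3, Stat5a to Stat5b and Il6ra to Il6st, with 1 point per library and the mean ± SD beside each group. HDN stands above LDN and Naive for Socs3 to Stat3, LDN above HDN for Stat5a to Stat5b, and Naive far above both blood groups for Il6ra to Il6st.

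Socs1, which inhibits JAKs mostly after interferon, had the fewest reads of the members, 65 to 480 per library. Naive 1 to 4 had 8.26, 6.20, 6.0 and 5.35 CPM. HDN 3, 4, 5 and 7 had 10.1, 15.3, 6.43 and 6.11 CPM, and LDN 3, 4, 5 and 7 had 6.85, 8.76, 3.32 and 4.70 CPM. The groups overlapped, yet LDN had the lower value in 4 of 4 number pairs, and numbers 3 and 4 were the higher ones in both fractions. LDN against HDN gave -0.68 ± 0.33 SE on the log2 scale (adjusted p = 0.106, edgeR) without the pairing and -0.72 ± 0.14 (adjusted p = 0.00369, edgeR) with the replicate number as a block. Without LDN 4 the unpaired difference also passed (adjusted p = 0.0315, edgeR). Against Naive the values were 0.55 in HDN (adjusted p = 0.161, edgeR) and -0.13 in LDN (adjusted p = 0.768, edgeR). With the number as a block over all 12 libraries, although Naive numbers did not pair with those of the blood libraries, HDN against Naive was 1.12 and called (adjusted p = 0.00322, edgeR).

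Pim1, a serine/threonine kinase gene that is a textbook target of Stat3 and Stat5, had no called difference. Its Naive libraries 1 to 4 had 402, 360.5, 269 and 249 CPM. HDN 3, 4, 5 and 7 had 261, 469, 269 and 436 CPM, and LDN 3, 4, 5 and 7 had 257, 462, 301 and 427 CPM. Libraries of the same number were nearly equal in the 2 fractions, with numbers 4 and 7 high and 3 and 5 low in both. The largest difference within a number was 31.6 CPM, where the range across numbers was 208 CPM in HDN and 205 CPM in LDN. Fitted log2 differences were 0.01 for LDN against HDN (interval from -0.54 to 0.56, adjusted p = 0.977), 0.16 for HDN against Naive (adjusted p = 0.58) and 0.17 for LDN against Naive (adjusted p = 0.569, edgeR). The sign of the differences of LDN from HDN and from Naive changed with the setting. With the replicate number as a block, LDN against HDN was -0.03 with an adjusted p of 0.778.

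**Figure D4:**
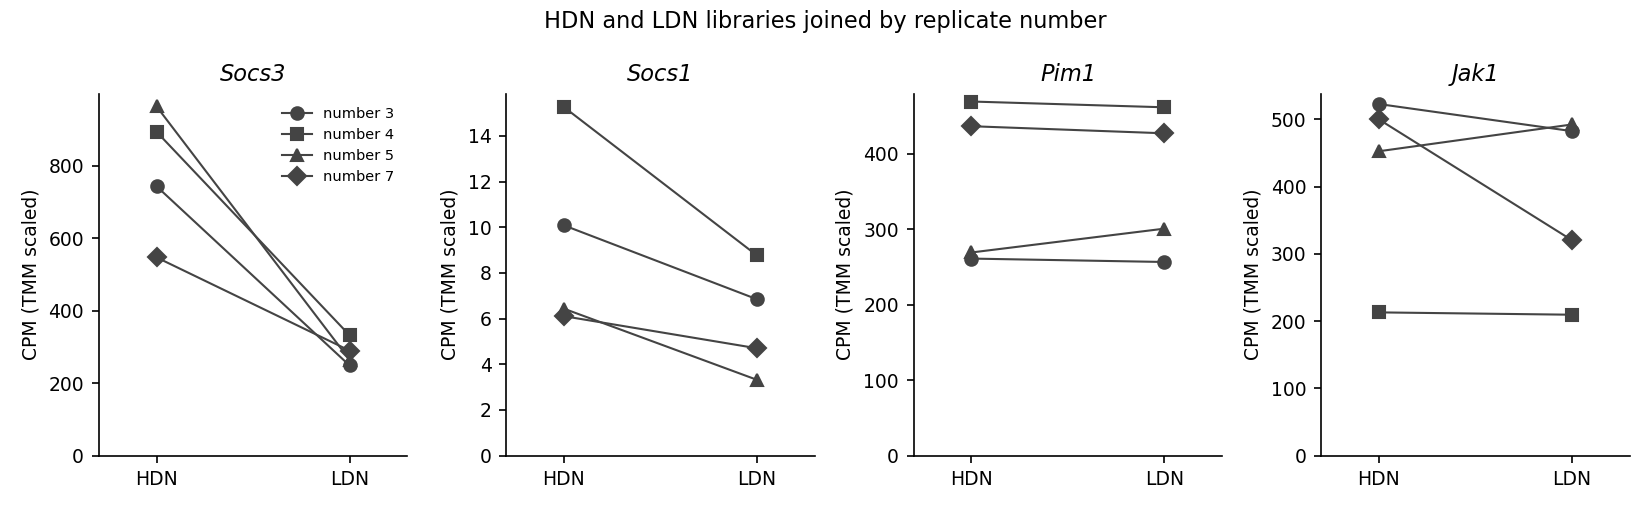
Expression of Socs3, Socs1, Pim1 and Jak1 in HDN and LDN, in TMM-scaled CPM on a linear axis from 0, with a line joining the 2 libraries of the same replicate number and a marker shape per number. Lines for Socs3 and Socs1 fall from HDN to LDN in all 4 numbers, lines for Pim1 are nearly flat at separate heights, and Jak1 is lowest in number 4 in both fractions.

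Genes with the most similar course over the 12 libraries were found by the root mean square (RMS) difference of centred log2 CPM, among 6083 genes whose mean log2 CPM reached 3. Nearest to Socs3 were Tctn1, Ctsa and Metrnl, at RMS differences of 0.17, 0.20 and 0.21. For Il4ra they were Gpld1, Csf2rb2 and Naprt (0.21, 0.27 and 0.27), of which Csf2rb2 is itself a chain of a cytokine receptor. Nearest to Stat3 were Atp6v0a1, Rps9 and Ppp1r15b, and to Il6ra Tpt1, Npc1 and D430042O09Rik. Jak1 was closest to Atp8a1, Golga3 and Adam17, and Pim1 to Fastk, Uqcr10 and Cyp4f13. Socs1 was closest to Psmb8, Gm8909 and H2-T23, at RMS differences of 0.20 to 0.23, Stat5a to Psap, Slc35c2 and Arhgap27, and Stat5b to Otud5, Kctd11 and Ptk2b. For Stat5b the likeness was close, 0.08 for each of the 3 genes.

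Around the members, 102 other genes of the pathway were listed by role, 101 had values (Csf2ra was not analysed here) and 72 passed the filter on low counts. Of the 72, 39 (54.2%) were called between LDN and HDN, 13 higher and 26 lower in LDN. Against Naive, 38 were higher and 16 lower in HDN (75% called), and 30 were higher and 12 lower in LDN (58.3% called). With library totals that leave out the 20 most abundant genes, the split in LDN against Naive was 25 higher and 21 lower. The shares over all 10604 genes were 46.3%, 59.8% and 54.2%. By direction, 26% of all genes were higher and 20.3% lower in LDN than in HDN. Against Naive, 30% were higher and 29.9% lower in HDN, and 27.4% and 26.8% in LDN. Adjusted p-values below are from edgeR over all genes.

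Among the kinases beside Jak1, Jak3, which pairs with the common gamma chain, had 17.5 ± 2.09 CPM (SD, n = 4) in Naive, 115 ± 21.9 in HDN and 139 ± 12.4 in LDN. Its log2 fold change over Naive was 2.72 in HDN (adjusted p = 7.66e-09) and 2.99 in LDN (adjusted p = 6.78e-09). Tyk2, a kinase of interferon and interleukin-12 receptors, was higher in LDN than in HDN, 79.1 ± 6.30 against 52.2 ± 6.68 CPM (log2 0.60, adjusted p = 0.000907). Of the other STAT genes, Stat2, which acts in the type I interferon response, exceeded Naive on the log2 scale by 1.92 in HDN (adjusted p = 1.99e-05) and by 1.23 in LDN (adjusted p = 0.000964). Its difference between the fractions, -0.69 (adjusted p = 0.0356), did not pass without HDN 3, HDN 4, LDN 5 or LDN 7.

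In the SOCS family beside Socs1 and Socs3, 5 of 6 genes were tested. In HDN against Naive 4 rose and 0 fell, beside 30% and 29.9% of all genes. Cish, a target of Stat5 that inhibits its signalling, moved opposite to Socs3 between the fractions. It had 1.43 ± 0.353 CPM (SD, n = 4) in Naive, 3.05 ± 1.09 in HDN and 12.6 ± 3.37 in LDN. Without overlap, LDN exceeded HDN by a log2 fold change of 2.05 (adjusted p = 9.03e-05) and Naive by 3.13 (adjusted p = 2.08e-06). Socs5 and Socs6 were higher in both blood groups, Socs5 by 1.76 in HDN (adjusted p = 4.22e-05) and 2.11 in LDN (adjusted p = 1.21e-05), Socs6 by 0.97 (adjusted p = 0.00397) and 1.28 (adjusted p = 0.000689). Socs7 was lower in LDN, by -0.55 against HDN (adjusted p = 0.0197) and -0.76 against Naive (adjusted p = 0.00212). Of 11 other inhibitors and phosphatases, 3 (27.3%) were called between LDN and HDN, beside 46.3% of all genes. The phosphatase gene Ptpn6 (SHP-1) was higher in LDN than in HDN, 1243 ± 99.3 against 876 ± 139 CPM (0.50, adjusted p = 0.00851), Ptpn1 was higher in HDN than in Naive by 1.02 (adjusted p = 2.54e-05) and the STAT3 inhibitor Pias3 was lower there by -0.76 (adjusted p = 0.000165).

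Receptor genes were called in both directions. The share over all genes was 30% higher and 29.9% lower in HDN than in Naive. Against Naive, HDN was higher for 3 and lower for 0 of 3 tested receptors of the gp130 family, higher for 4 and lower for 1 of 5 with the common beta chain or a single chain, higher for 4 and lower for 2 of 8 for interferons and the interleukin-10 and interleukin-12 families, and higher for 2 and lower for 3 of 7 with the common gamma chain or for interleukin-4 and interleukin-13. Beside Il4ra, the chain Il13ra1, which forms a joint receptor with it, had 15.4 ± 4.30 CPM (SD, n = 4) in Naive, 348 ± 119 in HDN and 230.4 ± 99.9 in LDN (log2 4.50 and 3.90 over Naive, adjusted p = 3.1e-07 and 1.64e-06). The common gamma chain Il2rg, the other partner of Il4ra, was higher in LDN than in HDN, 30.4 ± 2.27 against 11.4 ± 3.96 CPM (1.42, adjusted p = 0.000194). The G-CSF receptor Csf3r, whose signal Socs3 inhibits, had 3632 ± 640.1 CPM in Naive, 8660.4 ± 2125 in HDN and 3962 ± 446 in LDN. Like Socs3 it was lower in LDN than in HDN, without overlap (-1.13, adjusted p = 0.000392). Csf2rb, the common beta chain, and its copy Csf2rb2 were higher in HDN than in Naive (1.48, adjusted p = 4.27e-06, and 3.35, adjusted p = 3.2e-09), and because the pair is near-identical their separate values are uncertain. Il3ra was higher in LDN than in HDN by 2.17 (adjusted p = 1.98e-06), from a low level of 1.76 ± 0.201 CPM in HDN. The interferon-gamma receptor chain Ifngr1 stood at 91.3 ± 3.56 CPM in Naive, 927 ± 121 in HDN and 754 ± 39.7 in LDN (over Naive 3.34 and 3.05, adjusted p = 1.98e-10 and 5.72e-10). Ifnlr1, the interferon-lambda receptor, went the other way, from 179 ± 16.8 CPM in Naive to 50.2 ± 10 in HDN and 86.4 ± 12.5 in LDN (-1.84 and -1.05, adjusted p = 2.59e-07 and 5.75e-05). Lifr was called lower in LDN than in HDN (-2.60, adjusted p = 0.0177), which rested on HDN 7 at 48.2 CPM beside 2.89 to 7.72 in the other HDN libraries, and without HDN 7 the adjusted p was 0.15.

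Of 21 ligand genes 6 passed the filter, and Il6 had 1 read in all 12 libraries together. Osm (oncostatin M, a gp130 ligand) was lower than in Naive, 976 ± 422 CPM (SD, n = 4), in both HDN, 97.3 ± 15.9 (-3.33, adjusted p = 3.9e-06), and LDN, 161 ± 88.9 (-2.60, adjusted p = 4e-05). Il15 was lowest in LDN (0.784 ± 0.478 CPM) and Il12a highest in HDN (14.3 ± 2.02 CPM), and LDN was below HDN for both (-2.68, adjusted p = 0.000124, and -1.67, adjusted p = 0.000254). Il27 was higher in LDN than in HDN (1.37, adjusted p = 0.00121).

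Of 21 known STAT targets beside Pim1, all of them tested, 3 were higher and 13 lower in LDN than in HDN. Over all genes 26% were higher and 20.3% lower there. Against Naive, 13 targets were higher and 5 lower in HDN, beside 30% and 29.9% of all genes. Saa3, an acute-phase gene, rose from 2.64 ± 0.632 CPM (SD, n = 4) in Naive to 8148 ± 4375 in HDN (11.59, adjusted p = 3.61e-08) and 1916 ± 1458 in LDN (9.51, adjusted p = 2.64e-07). Fgl2 and the Pim1 relative Pim3 were lower in LDN than in HDN without overlap (-2.13, adjusted p = 2.02e-05, and -1.93, adjusted p = 9.54e-05). Lcn2, a granule protein gene also made during maturation, and the cyclin gene Ccnd3 were higher in LDN than in HDN (1.43, adjusted p = 2.1e-05, and 1.12, adjusted p = 0.000403). The survival gene Bcl2l1 exceeded Naive by 1.59 in HDN (adjusted p = 2.51e-06) and by 1.34 in LDN (adjusted p = 1.85e-05). Many of these targets answer to other factors too, and the list was drawn up with earlier results of these data known.

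**Figure D5:**
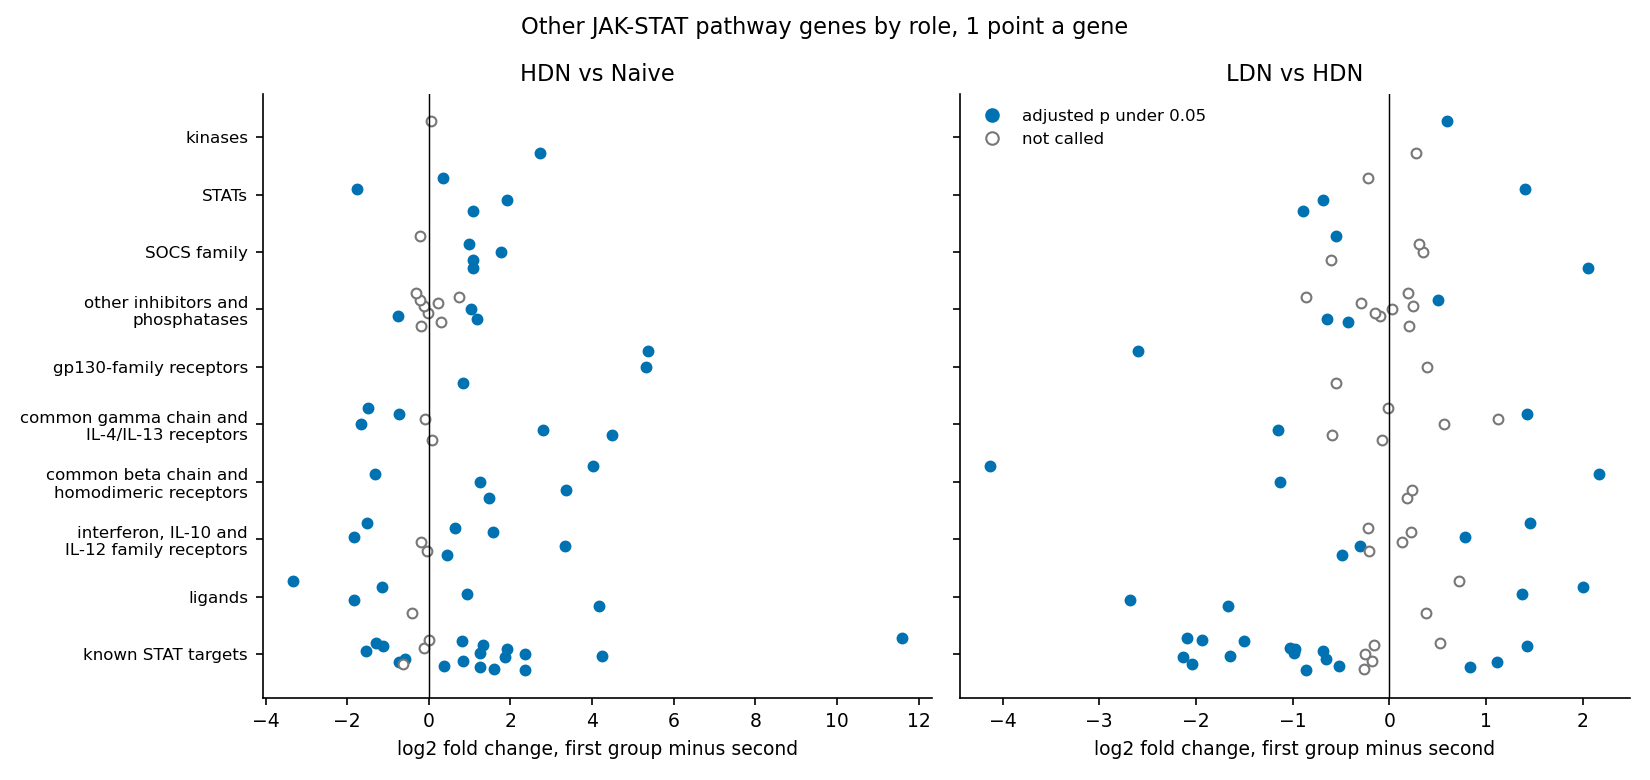
Log2 fold change of the 72 tested pathway genes by role for HDN against Naive and LDN against HDN, with 1 point per gene, filled where the adjusted p is under 0.05. STAT targets lie mostly below 0 for LDN against HDN (13 lower and 3 higher called of 21), and SOCS family genes lie mostly above 0 for HDN against Naive (4 higher called of 5). Of all genes, 20.3% were called lower and 26% higher in LDN than in HDN, and 30% higher in HDN than in Naive.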

How the data were processed

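Poly(A) RNA-seq libraries were made with a stranded kit, per the labels' protocols. Per the submitters' processing notes the tools were CASAVA 1.8.2, Trimmomatic, STAR and DESeq2 1.16.1. Build, annotation and strandedness of the counting: not given in the sources used here. Without strandedness, overlapping antisense genes cannot be told apart. The deposited table holds raw counts per gene symbol in 12 columns, each matched to its sample by name. The authors also deposited 3 tables that, per the file headers, give the mean scaled signal, a log2 fold change with its error, a test score and p-values.

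Genes passing edgeR's filter by group (10604 of 15762 with reads) were fitted on the counts with edgeR 4.0.16 (R 4.3.3), TMM scaling and robust quasi-likelihood, all 12 libraries in one model with group as the term. Adjusted p-values are Benjamini-Hochberg over all genes, at 0.05. Intervals (95%) use the standard error and 9 residual degrees of freedom. CPM values use TMM-scaled library sizes. Ratios of reads were compared by exact permutation of 4 against 4 libraries. The procedure was run on simulated data for LDN against HDN (10391 genes). There 98 genes were changed by log2 1 and 100 by log2 2, and libraries had no pairs. It called 57.1% and 91% of these genes and 0.0196% of unchanged genes. In the real comparison 46.3% of genes were called, a far larger share, so these rates may not hold for it. Reads are not unique molecules, so precision from depth covers counting error only.

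Titles of both blood groups carry the numbers 3, 4, 5 and 7, and no label says what a number marks. Deviations from the group means correlated between same-numbered libraries at r = 0.31 to 0.76, over 0.1 in all 4 pairs. Between HDN and LDN libraries of different numbers r ranged from -0.61 to 0.41, so passing 0.1 did not single out same numbers. Each LDN library had its highest r with the HDN library of its number. HDN 3, however, correlated more with LDN 5 (0.41) than with LDN 3 (0.39). Same-numbered libraries were treated as pairs in the replicate block and the sign flips, not in the main model. Blocked values of genes between the fractions are given beside a result where they change its call. For the ratios, exact sign flips of the pairs are given beside the unpaired permutation.

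The members, the role lists and the markers were chosen with earlier results of these data known. Named were all members, per role list and comparison up to 4 called genes of the smallest adjusted p whose mean log2 CPM reached 1, of which a part is reported, the genes in ratios, and the 3 most similar genes per member. Il6 and the marker genes fall outside that rule and were chosen after their values were seen. Alternatives were RLE scaling, totals without the 20 most abundant genes, no filter, DESeq2 1.42.0, limma-voom (limma 3.58.1), the 2 groups alone, the replicate block, each library left out, and, added later, Naive 1, HDN 4 and LDN 4 left out together. Transcript lengths came from a reference annotation by symbol (96.5% of tested genes matched). The planned ratio of Jak1 to Jak2 was not run.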

Additional observations from a re-analysis of the deposited data

Results flagged for a closer look

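Among 36 groups of 4 libraries examined (the 9 members in CPM and 3 ratios, in 3 groups each), 2 held a library far from the other 3, where chance gives about 1 in 20. Stat5b in HDN 7 had 226.769 CPM beside 332 to 349 CPM in the other HDN libraries. The log2 ratio of Stat5a to Stat5b in Naive 2 was -3.26256 beside -3.19 to -3.19 in the other Naive libraries, a gap that is narrow in size.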

How the results depend on the processing

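Of 111 gene results (members and named pathway genes, each in its comparisons), 85 kept direction and call in all 20 settings, and no count of called genes over both directions together moved by over 1.5 times. Split by direction, totals without the 20 most abundant genes moved 2 counts in LDN against Naive past that: all genes called higher from 2910 to 1850 and pathway genes called lower from 12 to 21. Stat5b was called lower in LDN than in Naive with those totals, with the 2 groups alone and without HDN 7. Leaving out 1 library gave 2 to 3 members called in LDN against HDN, 4 to 5 in HDN against Naive and 4 to 5 in LDN against Naive. Totals without the 20 most abundant genes moved the median log2 fold change of all genes by -0.14 in LDN against HDN, -0.15 in HDN against Naive and -0.29 in LDN against Naive. With the replicate block, exact sign flips of the 4 pairs gave p = 0.125, the smallest they can give, for the ratios of Socs3 to Stat3 (-1.51), Stat5a to Stat5b (0.47) and Il6ra to Il6st (-0.60) between LDN and HDN, each in the same direction in 4 of 4 pairs. With the block among genes, Socs1 became called in LDN against HDN and in HDN against Naive (1.12, adjusted p = 0.00322, edgeR), and in HDN against Naive the calls of Jak1 (adjusted p = 0.425), Socs4 (0.0609) and Il2rg (0.056) were lost. It changed no other call of a member or named pathway gene. Naive numbers 3 and 4 did not pair with the blood libraries (r = -0.11 to -0.08 with HDN and -0.13 to 0.16 with LDN). Without 1 library the log2 ratio of Stat5a to Stat5b ranged from 0.41 to 0.54 in LDN against HDN, -0.36 to -0.23 in HDN against Naive and 0.14 to 0.25 in LDN against Naive, and that of Il6ra to Il6st from -0.69 to -0.51 in LDN against HDN. Signs changed for uncalled differences alone, and the cause was not tested. In LDN against HDN, Stat3, Stat5a and Pim1 were -0.0015, -0.040 and -0.043 with RLE scaling, -0.085, -0.12 and -0.15 with totals without the 20 genes, and -5.38e-05, -0.036 and -0.039 with the 2 groups alone. Stat5a and Pim1 were -0.032 and -0.033 without the filter, -0.035 and -0.037 with DESeq2, and -0.013 and -0.031 with the replicate block. In LDN against Naive, Pim1 was -0.10 with totals without the 20 genes. The replicate block over all groups gave 0.17 for Stat5a in HDN against Naive, and 0.21 for Stat5a and 0.45 for Socs1 in LDN against Naive. Leaving out 1 library, LDN against HDN ranged from -0.18 to 0.17 for Pim1, -0.054 to 0.11 for Stat3 and -0.14 to 0.13 for Stat5a, HDN against Naive from -0.18 to 0.095 for Stat5a, and LDN against Naive from -0.014 to 0.26 for Pim1 and -0.43 to 0.015 for Socs1. Depth limits Socs1, with 65 to 480 reads, and Il6st in Naive, with 3 to 25.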
